A study of Mus musculus with 7 samples.

Results

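Levels of 45 interferon-stimulated genes, which cells switch on when interferon binds them, were compared in mouse interscapular brown fat with and without PGAM5, a phosphatase of mitochondria. The 45 genes were chosen by name, as a list of well-known interferon targets, with earlier results of these data known. All 45 were found among the 53715 gene identifiers of the deposited count table. Brown fat came from male C57BL/6J mice, all 10 weeks old, either wild-type (WT) or knockout for PGAM5 (KO). The labels name no treatment, no infection and no housing temperature, and they do not say how the knockout was made or on what strain it was first bred. The labels list 3 WT and 4 KO animals; KO replicate 4 was not analysed here, so the comparison is of 3 WT with 3 KO libraries of poly(A) RNA. All 45 genes passed the filter on low counts, which left 15123 genes to test.

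Type I interferons (alpha and beta) signal through the receptor chains IFNAR1 and IFNAR2 to a complex that holds STAT2 and IRF9 and binds DNA at a site called ISRE. Interferon gamma, made mainly by T and NK cells, signals through IFNGR1 and IFNGR2 to sites called GAS and switches on the transcription factor IRF1. Immunity-related GTPases (IRG) and guanylate-binding proteins (GBP) are known in mice as strong targets of interferon gamma and act against microbes that live inside vacuoles, while many antiviral genes answer mainly to type I interferon. Most of these genes can answer to both kinds, so the division used here into 34 type I members, 9 IRG and GBP GTPases, and Irf1 with Cxcl10 apart, is a convention.

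Stretches of promoter are shown for the members of highest level that carry an ISRE core near the start. Those with the smallest p in the comparison below are shown as well. The stretches show matches to the cores of the ISRE and GAS sites, and binding was not measured. Sequences are from RefSeq (GRCm38.p6) and run 5′ to 3′ on the strand of the gene, and capitals mark the ISRE core (GAAA, any 2 bases, GAAA) and the GAS core (TTC, any 3 bases, GAA) on either strand. The stretches are Gbp3 at chr3:142559944-142560043 (plus strand), Gbp7 at chr3:142530230-142530335 (plus), Gbp2 at chr3:142620559-142620658 (plus), Irgm2 at chr11:58214868-58214967 (plus), Irf1 at chr11:53769878-53769977 (plus) and Ddx58 at chr4:40239814-40239913 (minus).
Gbp3: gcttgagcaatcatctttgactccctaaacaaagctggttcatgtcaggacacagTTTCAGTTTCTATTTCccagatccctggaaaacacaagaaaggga
Gbp7: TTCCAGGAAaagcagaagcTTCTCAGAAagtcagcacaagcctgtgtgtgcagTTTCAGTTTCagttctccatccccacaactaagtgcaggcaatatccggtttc
Gbp2: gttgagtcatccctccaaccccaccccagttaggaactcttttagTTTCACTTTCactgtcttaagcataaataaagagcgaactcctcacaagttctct
Irgm2: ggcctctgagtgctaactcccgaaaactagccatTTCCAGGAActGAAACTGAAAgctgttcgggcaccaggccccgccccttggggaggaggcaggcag
Irf1: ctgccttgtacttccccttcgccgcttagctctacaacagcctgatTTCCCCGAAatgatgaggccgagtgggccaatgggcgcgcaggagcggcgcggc
Ddx58: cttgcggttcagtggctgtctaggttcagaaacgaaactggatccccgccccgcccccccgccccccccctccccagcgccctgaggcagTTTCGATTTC

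Counted from the start, the leftmost ISRE core begins at -45 in Gbp3, -53 in Gbp7, -59 in Gbp2 and -64 in Irgm2. Gbp7 and Irgm2 also hold GAS cores, at -106 and -87 and at -75, and Irf1 holds a GAS core at -90 and no ISRE core in its window. In Ddx58 the ISRE core begins at base 3 of the transcript. RefSeq windows, from 250 bases before to 50 after the start, were available for 33 of the 45 genes. An ISRE core lay in 18 of these 33, 54.5%, against 3.99% of the 27025 genes with a window, and a GAS core in 9 of 33, 27.3%, against 9.55%. Among the GTPases the ISRE core lay in 6 of 7 windows and the GAS core in 3 of 7, and among type I members in 11 of 24 and 5 of 24. These are matches of letters within a short window, on both strands, and the 2 motifs were counted separately even where they touched.

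Loss of Pgam5 RNA was checked first. Counts of Pgam5 were 167, 122 and 186 in the WT libraries against 1, 3 and 11 in the KO libraries (log2 fold change -4.84, SE 0.59, edgeR quasi-likelihood test, adjusted p = 0.0243). Total counts ran from 18034204 to 33617762 per library, and the 14 brown adipocyte markers summed to between 14600.0 and 19230.0 CPM (counts scaled to library size, with TMM factors) and all 14 passed the count filter. WT 2 (-65.0) and KO 3 (66.8) lay at opposite ends of the first principal component, away from the remaining libraries (-13.0 to 8.23). Genes of the mitochondrial genome took 28.2% to 43.0% of counts in the other 5 libraries and 19.7% in KO 3. Results are therefore also given without WT 2 and KO 3. The labels describe the samples as individuals and name no batch.

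No member passed the threshold, an adjusted p of 0.05 over all 15123 genes, in the edgeR test. Over all genes 0.0595% passed, 0.0198% higher and 0.0397% lower in KO. Of the 45 members 38 had a higher fitted level in KO and 7 a lower one, and the median log2 fold change was 0.16, against -0.00 for all genes tested, of which 49.8% were higher. At an unadjusted p under 0.05 there were 9 members higher and 0 lower in KO, with 6.30% of all genes higher and 5.49% lower at that level. All KO libraries lay above all WT libraries for 8 members (10.1% of all genes) and below them for 0 (9.39% of all genes). DESeq2 called 1 member, Gbp3 (adjusted p = 0.0348), where it called 0.668% of all genes higher, and limma-voom called 0.

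**Figure D1:**
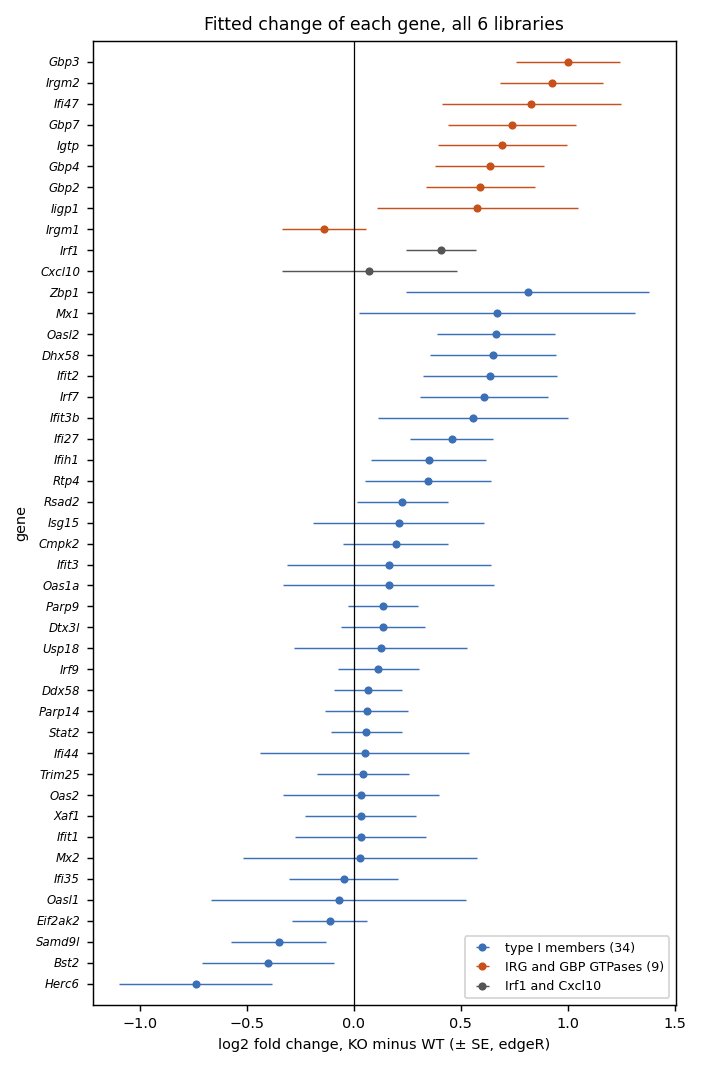
Fitted log2 fold change (KO minus WT, horizontal axis) of each of the 45 genes with its standard error, from the edgeR fit on 3 WT and 3 KO libraries; genes are grouped by class and ordered by value. Of the 9 IRG and GBP GTPases 8 lie above 0, up to 1.0 for Gbp3, while type I members spread from -0.74 (Herc6) to 0.81 (Zbp1).

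The IRG and GBP GTPases had larger differences than the type I members. Their median log2 fold change was 0.69, against 0.13 for the 34 type I members. Of the GTPases 8 of 9 were higher in KO, of the type I members 28 of 34, and 6 of the 9 members with an unadjusted p under 0.05 were among them. Several are neighbours and are not separate observations of a locus: Gbp7, Gbp3 and Gbp2 lie in a row on chromosome 3, between 142530342 and 142638008 (mm10), and Igtp and Irgm2 overlap on chromosome 11, between 58199556 and 58222782. Reads in the exons that Igtp and Irgm2 share in that annotation may be split or lost.

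Gbp3, a guanylate-binding protein gene (ENSMUSG00000028268.14), stood at 12.6, 11.9 and 9.71 CPM in WT 1 to WT 3 then 23.7, 29.0 and 15.6 CPM in KO 1 to KO 3. The groups did not overlap, KO 2 was highest, and KO 3 was closest to WT. The WT mean was 11.4 ± 1.5 CPM and the KO mean 22.8 ± 6.74 CPM (SD, n = 3 each; log2 change 1.0, SE 0.24, edgeR adjusted p = 0.306). Irgm2 (ENSMUSG00000069874.7), which encodes a GTPase of the IRGM subgroup that keeps other IRG proteins in check, had 13.7, 14.2 and 12.6 CPM in WT and 23.1, 35.2 and 18.5 CPM in KO. KO 3, KO 1 and KO 2 stood in the same order as for Gbp3, with no overlap between groups (log2 0.93, SE 0.24, edgeR adjusted p = 0.310).

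For most of the other GTPases KO 1 and KO 2 were high and KO 3 lay among the WT libraries. Gbp7 had 19.6, 16.8 and 24.8 CPM in WT and 32.7, 49.6 and 20.1 CPM in KO (log2 0.74, SE 0.30, edgeR adjusted p = 0.410). Gbp2 had 17.4, 20.3 and 19.3 CPM in WT and 26.9, 40.0 and 18.8 CPM in KO (log2 0.59, SE 0.26, edgeR adjusted p = 0.420). Igtp, also called Irgm3, had 9.09, 10.7 and 9.95 CPM in WT and 14.5, 23.9 and 9.58 CPM in KO (log2 0.69, SE 0.30, edgeR adjusted p = 0.422). In each of these 3 genes the KO 3 value fell inside the WT range while KO 2 was highest of the 6 libraries. Gbp4 differed in that KO 1 was highest, with 23.1, 18.5 and 15.1 CPM in WT and 36.9, 31.5 and 19.5 CPM in KO (log2 0.63, SE 0.26, edgeR adjusted p = 0.405). Reads of Gbp4 can be shared with Gbp9, which overlaps it on the same strand, and whose longest transcript was 86.7% identical to that of Gbp4.

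The remaining GTPases differed more within groups. Iigp1, an IRG effector that coats the vacuoles of parasites, had 12.6, 28.5 and 13.7 CPM in WT and 26.0, 44.5 and 10.7 CPM in KO. The groups overlapped, WT 2 lying above KO 1 and KO 3 being lowest of all (log2 0.58, SE 0.47, edgeR adjusted p = 0.603). Ifi47, another IRG gene, was low, from 1.13 to 1.32 CPM in WT, and had 1.46, 3.43 and 1.81 CPM in KO, without overlap (log2 0.83, SE 0.42, edgeR adjusted p = 0.452). Irgm1, a regulator of the IRG family linked to autophagy, was the exception, with 13.0 to 15.9 CPM in WT and 11.6 to 15.3 CPM in KO (log2 -0.14, SE 0.20).

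**Figure D2:**
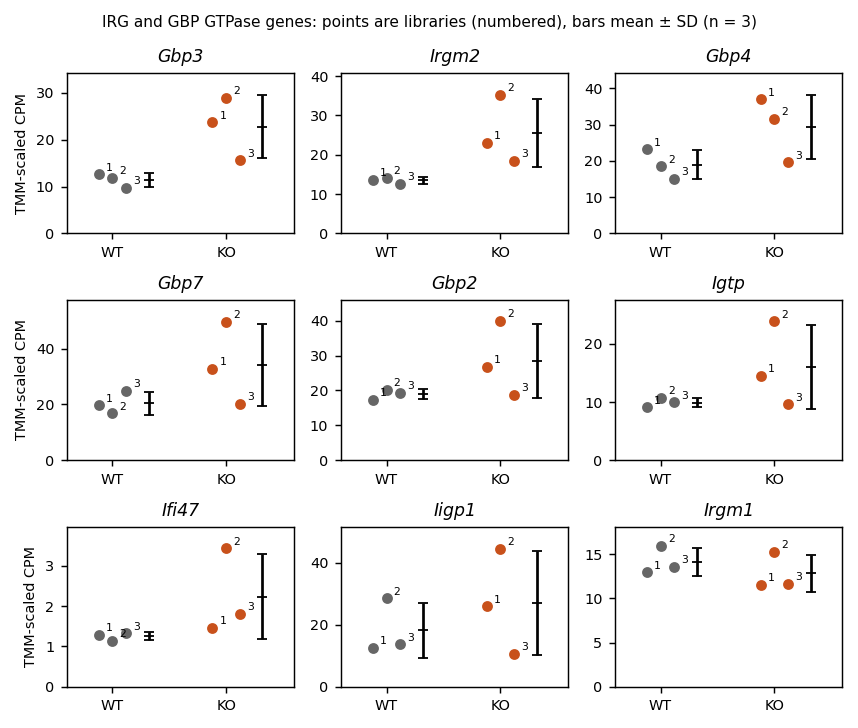
TMM-scaled CPM (vertical axes, from 0) of the 9 IRG and GBP GTPase genes; numbered points are the WT (grey) and KO (orange) libraries, and the black bar beside each group is its mean with SD, n = 3. KO 2 is highest of the 6 libraries in 7 of the 9 genes, and KO 3 lies within or near the WT points in most.

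The 2 classes differed by library. Set against the WT mean of each gene, the median of the 9 GTPases on the log2 scale was -0.04, 0.08 and -0.06 in WT 1 to WT 3, then 0.61, 1.30 and -0.00 in KO 1 to KO 3. The median of the 34 type I members was -0.14, 0.01 and 0.19 in WT, against 0.06, 0.26 and 0.01 in KO. The GTPase median thus lay above WT in KO 1 and KO 2 and near 0 in KO 3, where Gbp3, Irgm2 and Ifi47 were above all WT libraries and Iigp1 and Irgm1 below them, while the type I median of KO 1 and KO 3 lay inside the WT range. KO 2 was the highest of the 6 libraries for 22 of the 45 members, against 8.99% of all genes tested. The median excess of KO 2 over the mean of KO 1 and KO 3 was 0.34 on the log2 scale, with 39 members positive, against a median of -0.01 for all genes.

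**Figure D3:**
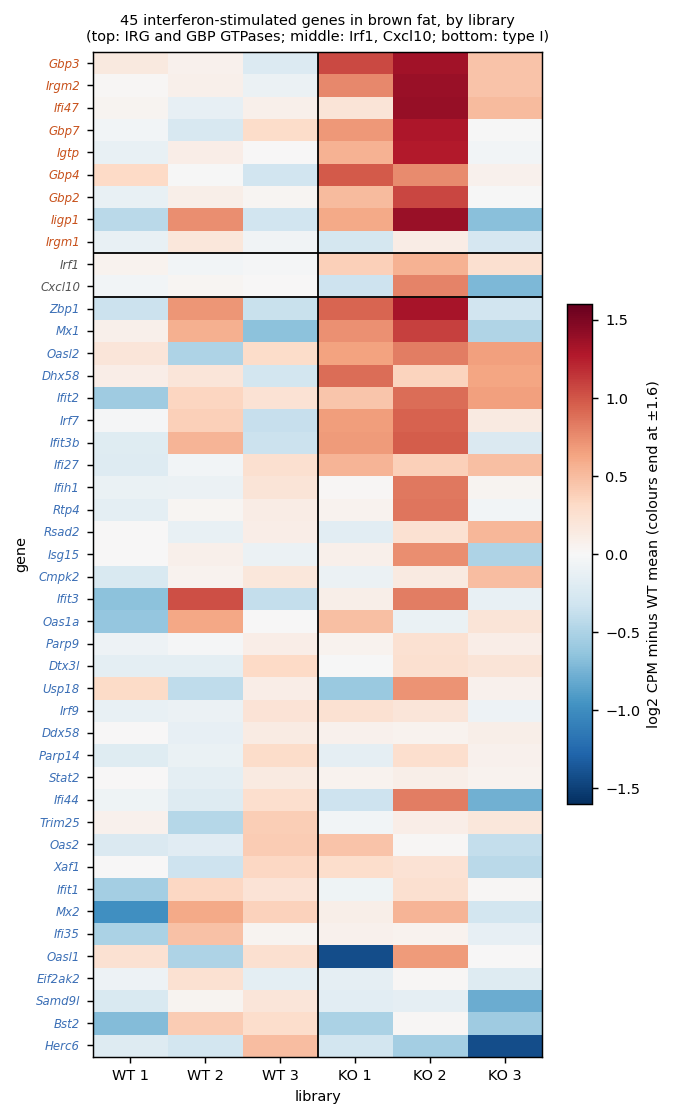
Log2 CPM of each of the 45 genes minus its WT mean, in colour (red above, blue below, colours ending at ±1.6), for each library in columns. The GTPase block at the top is mostly red in KO 1 and KO 2 and mixed in KO 3, and the type I block holds both colours in both groups.

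Without KO 2, 28 of 45 members were positive and the median was 0.07, with 49.7% of all genes positive. The type I count went from 28 to 19 of 34 (median 0.04), and the GTPase count was 8 of 9 (median 0.37). At an unadjusted p under 0.05 there were then 3 members higher (5.26% of all genes) and 0 members passed the adjusted threshold (0% of all genes). Gbp3 kept a log2 fold change of 0.79 and Irgm2 one of 0.62, while Iigp1 went from 0.58 to 0.01. Without WT 2 and KO 3, 9 of 9 GTPases were positive with a median of 0.91, Irgm1 turning from -0.14 to 0.02, and 26 of 34 type I members were positive with a median of 0.19. In all, 9 of 9 GTPases and 17 of 34 type I members kept their sign whichever single library was left out. For Irgm1 that sign was negative, and for the 8 other GTPases it was positive.

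**Figure D4:**
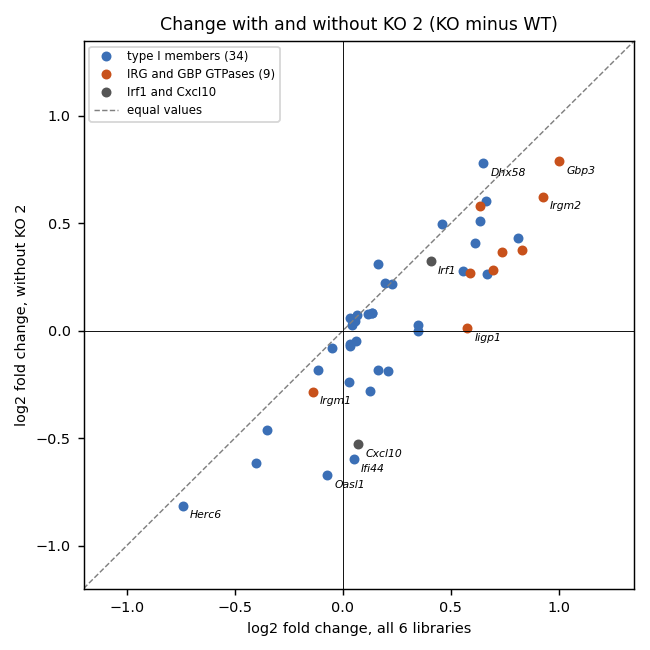
Log2 fold change (KO minus WT) of the 45 genes from all 6 libraries (horizontal axis) against the value without KO 2 (vertical axis); the dashed line marks equal values. Most points lie below the line, Cxcl10 and Ifi44 drop below 0, and Gbp3 and Irgm2 stay among the highest.

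Transcription factors of the pathway were present at moderate levels. Irf1, which interferon gamma induces within the first wave of genes, had 17.9, 16.7 and 17.0 CPM in WT and 22.5, 25.3 and 20.6 CPM in KO. The WT libraries were close together and all KO libraries lay above them (17.2 ± 0.604 and 22.8 ± 2.37 CPM as mean ± SD, n = 3 each; log2 change 0.41, SE 0.16, edgeR adjusted p = 0.408). Stat2, the STAT specific to type I and type III signalling, had 19.2, 17.1 and 21.01 CPM in WT and 19.7, 20.3 and 19.7 CPM in KO (log2 0.06, SE 0.16). Irf9, its DNA-binding partner, had a log2 fold change of 0.11 (SE 0.19), and Irf7, which amplifies type I interferon production, one of 0.61 (SE 0.30, edgeR adjusted p = 0.443) with overlapping groups. Reads of Irf7 can be shared with Phrf1 on the opposite strand and those of Irf9 with Rnf31 on the same strand, since exons overlap.

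The IFIT genes, whose proteins bind foreign RNA, had log2 fold changes from 0.03 to 0.64. Ifit2 had 2.14, 4.14 and 3.80 CPM in WT and 4.41, 6.05 and 5.13 CPM in KO, without overlap (log2 0.64, SE 0.31, edgeR adjusted p = 0.446). Ifit1 had 2.59, 4.80 and 4.44 CPM in WT and 3.64, 4.55 and 3.86 CPM in KO, so KO lay inside the WT range. Ifit3 (log2 0.16, SE 0.48) and Ifit3b (0.56, SE 0.44) have transcripts that were 98.0% identical over 1697 aligned bases, and the split of reads between them is uncertain.

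Among nucleic acid sensors, Dhx58, which encodes LGP2, had 2.95, 3.14 and 2.21 CPM in WT and 5.14, 3.52 and 4.30 CPM in KO. The groups did not overlap, and KO 2 was here the lowest KO library (log2 0.65, SE 0.29, edgeR adjusted p = 0.423). Ddx58, which encodes RIG-I, had 21.1, 19.1 and 22.96 CPM in WT and 22.0, 21.8 and 22.3 CPM in KO (log2 0.06, SE 0.16). Eif2ak2, the gene of the kinase PKR, had 20.9, 26.1 and 19.7 CPM in WT and 20.1, 22.4 and 19.2 CPM in KO (log2 -0.11, SE 0.18). Ifih1, which encodes MDA5, was at 13.8 CPM in KO 2 and between 7.11 and 8.89 CPM in the other 5 libraries. Zbp1, a sensor tied to necroptosis, had 143 counts in all and a log2 fold change of 0.81 (SE 0.57).

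The OAS genes, whose products activate RNase L or bind double-stranded RNA, were low. Oasl2 had 4.44, 2.73 and 4.80 CPM in WT and 6.09, 6.91 and 6.16 CPM in KO (log2 0.66, SE 0.28, edgeR adjusted p = 0.415). Every KO library lay above WT, and KO 2 was only slightly above the other KO libraries. Its neighbour Oasl1 had 1.05, 0.600 and 1.06 CPM in WT and 0.273, 1.46 and 0.879 CPM in KO (log2 -0.07, SE 0.59). Oas2 had 1.86, 1.93 and 2.94 CPM in WT and 3.05, 2.23 and 1.66 CPM in KO (log2 0.03, SE 0.37), and Oas1a, whose longest transcript was 97.5% identical to that of Oas1g, had a log2 fold change of 0.16 (SE 0.49). Some members lie on chromosome 5, as Pgam5 does. Oasl2 is 4.63 Mb, Oasl1 4.65 Mb, Gbp4 5.12 Mb, Oas2 10.5 Mb, Oas1a 10.6 Mb and Cxcl10 17.9 Mb from Pgam5. For these genes, linked sequence carried along with the knockout allele and loss of PGAM5 itself cannot be told apart.

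In the ISG15 system, a ubiquitin-like tag with its enzymes, Herc6 had the lowest log2 fold change of all members. Herc6, the mouse ligase for ISG15, had 5.13, 4.80 and 8.39 CPM in WT and 4.82, 4.03 and 2.15 CPM in KO (log2 -0.74, SE 0.36, edgeR adjusted p = 0.435). The groups overlapped, with KO 1 just above WT 2. Isg15 itself was at 1.65 to 1.87 CPM in WT and had 1.86, 3.00 and 1.22 CPM in KO. Trim25, the ligase that activates RIG-I, had 43.7, 30.2 and 54.7 CPM in WT and 40.3, 44.98 and 47.3 CPM in KO (log2 0.04, SE 0.21). Usp18, which removes ISG15 and dampens the type I receptor, had a log2 fold change of 0.12 (SE 0.41).

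Of the other antiviral effectors Ifi27, the gene of a small membrane protein, was the most abundant of the 45 members. It had 534, 597 and 738 CPM in WT and 901, 806 and 859 CPM in KO, and KO 2 was the lowest KO library. The groups did not overlap (623 ± 104 and 855 ± 47.4 CPM as mean ± SD, n = 3 each; log2 change 0.46, SE 0.19, edgeR adjusted p = 0.419). Per kilobase of annotated exon its mean level was 504 CPM, against 11.6 for Bst2, which encodes tetherin, 9.45 for Gbp2 and 0.134 for Mx1. Samd9l, an inhibitor of translation, had 16.2, 19.7 and 21.9 CPM in WT and 17.0, 17.3 and 11.0 CPM in KO (log2 -0.35, SE 0.22). Log2 fold changes of the remaining effectors were -0.40 for Bst2, 0.23 for Rsad2 (viperin), 0.19 for its neighbour Cmpk2, 0.35 for Rtp4, 0.03 for Xaf1, -0.05 for Ifi35 and 0.05 for Ifi44. None of these effectors passed in edgeR, DESeq2 or limma-voom.

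The Mx genes, dynamin-like antiviral GTPases, were near the limit of detection. Mx1 had 10, 9 and 7 counts in WT, against 15, 21 and 5 in KO, and Mx2 had 9, 19 and 36 counts in WT, against 19, 28 and 13 in KO. In C57BL/6J mice the Mx1 allele is known to be defective. Parp9, an ADP-ribosyl transferase family member that acts with a ubiquitin ligase, had 16.2, 17.0 and 18.5 CPM in WT and 17.9, 20.3 and 18.6 CPM in KO (log2 0.14, SE 0.16). That ligase, Dtx3l, had a log2 fold change of 0.13 (SE 0.20). Parp14, of the same family, had 19.6, 20.7 and 27.5 CPM in WT and 20.3, 27.0 and 23.5 CPM in KO (log2 0.06, SE 0.19). For these 3 genes the groups overlapped. Parp9 and Dtx3l overlap on opposite strands. Cxcl10, a chemokine that draws T cells, had 2.87, 3.00 and 2.97 CPM in WT and 2.32, 5.19 and 1.76 CPM in KO. Its log2 fold change turned from 0.07 (SE 0.41) to -0.53 without KO 2, and its exons overlap those of Art3 on the opposite strand, which had 13080 counts against 425.

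The library pattern of the GTPases was strongest in KO 2. The 3 members with the largest excess there were Iigp1 (1.41 on the log2 scale over the mean of KO 1 and KO 3), Oasl1 (1.39) and Ifi44 (1.37). Ifi44, of unclear function, had 1.33, 1.20 and 1.71 CPM in WT and 1.09, 2.53 and 0.782 CPM in KO. Dhx58, Ifi27 and Oasl2 showed little or no such excess (-0.41, -0.13 and 0.17). KO 2 also held more RNA of skeletal muscle markers than the other KO libraries: the 12 markers, all with counts, summed to 39.5 CPM there and to 2.23 and 3.81 CPM in KO 1 and KO 3, against 8.88, 10.7 and 43.5 CPM in WT 1 to WT 3. The sum was as high in WT 3, where the GTPase median was -0.06, and the part of muscle RNA in the KO 2 values was not tested.

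Interferons themselves were barely detected at this depth. Of 15 interferon genes listed, 13 had no count in any library, which allows up to 0.0892 to 0.166 CPM per library (3 counts, counting error only). Ifng had 0, 0 and 2 counts in WT, against 5, 2 and 0 in KO, and Ifnk had 1 count in WT 3. Their receptors and the JAK-STAT genes were measured in 16 of 17 cases, with 10 positive and a median log2 fold change of 0.05. Ifnlr1, a chain of the type III receptor, was at log2 2.06 (SE 0.63, edgeR adjusted p = 0.350) at a low level of 0.0667 to 1.68 CPM. Ptpn11, the phosphatase SHP2, stood at 0.06 (SE 0.18) and Ifngr1 at -0.51 (SE 0.27).

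In the list of sensors and adaptors upstream of interferon, 14 of 19 tested genes were positive with a median of 0.12, and 1, Irf3, had an unadjusted p under 0.05 (log2 0.45, SE 0.18, edgeR adjusted p = 0.404). Nlrx1, a mitochondrial member of the NOD-like receptors, stood at 0.81 (SE 0.37), Mavs, the mitochondrial adaptor of RIG-I and MDA5, at 0.11 (SE 0.20) and Trim56 at 0.17 (SE 0.18). Of 63 tested interferon-stimulated genes outside the 45, 48 were positive, with a median of 0.29. There 16 were higher at an unadjusted p under 0.05 (6.30% of all genes), 0 lower, and 0 passed the adjusted threshold in edgeR. Uba7, the ISG15-activating enzyme, had 12.1, 9.07 and 8.95 CPM in WT and 19.1, 17.6 and 17.1 CPM in KO (log2 0.83, SE 0.19, edgeR adjusted p = 0.306). Gbp5, a GBP tied to inflammasomes, had 5.29, 3.20 and 5.24 CPM in WT and 9.10, 12.1 and 7.96 CPM in KO (log2 1.08, SE 0.28, edgeR adjusted p = 0.310). In both genes KO 3 also lay above WT. The most abundant genes of that list were Slfn5 (log2 -0.24, SE 0.19) and Tapbp, a peptide-loading chaperone (0.60, SE 0.20, edgeR adjusted p = 0.374).

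GTPases outside the 45 showed a library pattern of the same kind. The 7 tested of 8 further GBP and TGTP genes, grouped after their values were seen, had a median of -0.25, 0.01 and -0.15 in WT and 0.37, 0.94 and -0.11 in KO, relative to the WT mean on the log2 scale. For 6 of the 7 the log2 fold change was above 0. Gbp9, among the 7, overlaps the member Gbp4, so reads can be shared between them. For Gbp9, as for Gbp4, linked sequence and loss of PGAM5 itself cannot be told apart. Distances from Pgam5 were not computed for the genes outside the 45. The 56 other tested genes of the list had medians of -0.03, -0.02 and 0.04 in WT and 0.38, 0.37 and -0.06 in KO. A median above WT in KO 1 and KO 2 but not in KO 3 was thus not particular to the GTPases. In these other genes KO 2 did not exceed KO 1.

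Markers of cells that make or answer interferon were read beside these values. In bulk tissue, fewer cells of a type and less RNA per cell cannot be told apart. The 23 T, NK and B cell markers, none of them without counts, summed to 10.4 to 14.5 CPM in WT and to 23.3, 24.5 and 23.4 CPM in KO 1 to KO 3; 10 of 11 tested were positive. Ighm, the heavy chain gene of IgM made by B cells, singled out after its values were seen, gave 14.9 CPM of the sum in KO 3 and 7.17 and 6.78 CPM in KO 1 and KO 2. The other 22 markers summed to 9.36, 7.20 and 7.79 CPM in WT, against 16.1, 17.7 and 8.49 CPM in KO. Without Ighm the sum was above WT in KO 1 and KO 2 and inside the WT range in KO 3. With all 23 markers it was above WT in every KO library, also in KO 3, where the GTPase median was -0.00. Ighm was not the only marker highest in KO 3: Cd79a, kept among the 22, had 15, 32 and 41 counts in KO 1 to KO 3. Gzma and Gzmb, also kept, had 71 and 24 counts in KO 2, against 2 and 1 in KO 1. The sum without Gzma and Gzmb was not computed, so the order of KO 1 and KO 2 may depend on them. Ighm was the 1 tested marker of the list with an unadjusted p under 0.05 in edgeR (log2 1.31, SE 0.36, edgeR adjusted p = 0.323). Nkg7, a gene of cytotoxic T and NK cells, had 6, 2 and 8 counts in WT, against 41, 40 and 7 in KO, and Ccl5, a chemokine of the same cells, had 0.162, 0.667 and 1.18 CPM in WT and 2.96, 2.70 and 0.391 CPM in KO. Both were named after their values were seen, and both were high in KO 1 and KO 2 and low in KO 3. Other T and NK cell markers of the list were mixed in this respect. Lck had 35, 36 and 10 counts in KO 1 to KO 3, and Cd4 had 22, 28 and 8, a similar order. A different order was seen in Cd8a (29, 8 and 19), Cd3g (36, 6 and 4), Prf1 (5, 15 and 2) and Klrb1c (4, 16 and 5). The 16 macrophage markers summed to 114, 188 and 155 CPM in WT and 166, 153 and 97.5 CPM in KO. Their sum was thus also lowest in KO 3, and 5 of 15 tested were positive. The 10 plasmacytoid dendritic cell markers summed to 93.1 to 104.6 CPM in WT and 105.2 to 123.9 CPM in KO. Of 4 tested 3 were positive, and the other was Bst2, which is also 1 of the 45 members. Most of that sum was Tcf4, a transcription factor with 80.3 to 85.5 CPM in WT and 91.0 to 107.8 CPM in KO, while Siglech, a surface receptor of these cells, had 14, 2 and 9 counts in WT, against 1, 3 and 1 in KO. The part of these cells in the interferon-stimulated genes was not tested.

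**Figure D5:**
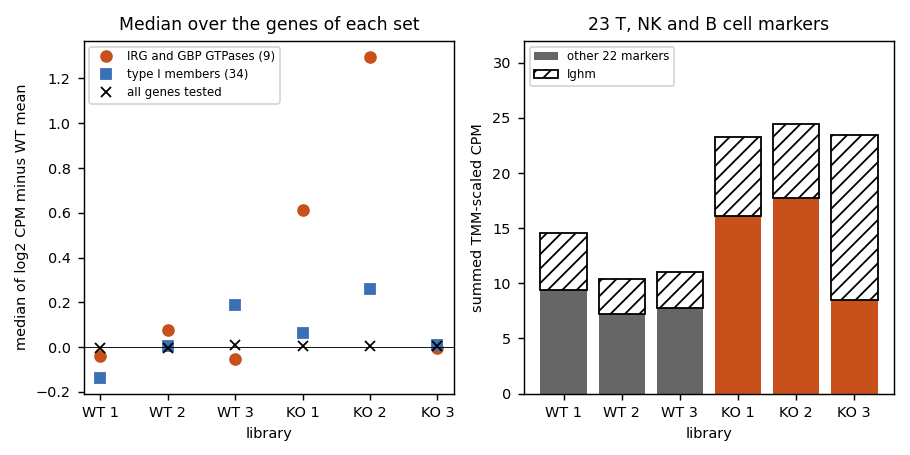
Left, the median over the 9 GTPases (orange), the 34 type I members (blue) and all genes tested (crosses) of log2 CPM minus the WT mean, for each library; right, the summed CPM of 23 T, NK and B cell markers as bars from 0, with Ighm hatched on top of the other 22. The GTPase median is 0.61 in KO 1, 1.30 in KO 2 and -0.00 in KO 3, and the sum of the other 22 markers is 16.1, 17.7 and 8.49 CPM there, with 14.9 CPM of Ighm added in KO 3.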

How the data were processed

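The authors deposited un-normalized read counts for each Ensembl gene. Build mm10, the aligner HISAT2 (2.1.0), the counter featureCounts (1.6.2) and DESeq2 are named in the submitters' processing notes. Which annotation and strand setting were used is not given in the sources used here, so reads of overlapping genes may not be separable. Columns were matched to 6 samples by title. Positions and exon lengths came from the reference annotation used here, GENCODE M 21 (mm10), symbols for 53620 of 53715 identifiers.

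filterByExpr (minimum count 10, minimum total 15) kept 15123 genes. Genotypes were compared in R 4.3.3 with the quasi-likelihood test of edgeR 4.0.16 (limma 3.58.1 and DESeq2 1.42.0 for alternatives; TMM scaling, genotype only, Benjamini-Hochberg over all genes, threshold 0.05). Log2 CPM used a prior count of 2. P-values set the difference between groups against the spread between these 3 libraries per group, with the spread estimated partly from all genes tested. Intervals are not given; floors are 3 counts.

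The members and lists were chosen with earlier results of these data known. Values by library or as a range, or for some only the fold change, are given for the 10 members of smallest p, the 2 of highest level in each role and the 3 with the largest KO 2 excess, and, from each other list, for the 2 of highest level and the 2 of smallest p; other genes were added after their values were seen. A gene that this rule names is not reported here. Alternatives were DESeq2 size factors, DESeq2, limma-voom, no filter, a stricter filter (1 CPM in 3 libraries), a replicate block, a robust fit and each library left out. Leaving out WT 2 with KO 3, and mitochondrial genome genes, were added after the data were seen.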

Additional observations from a re-analysis of the deposited data

How the results depend on the processing

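The edgeR test called 9 genes over all genes and 0 members. The count over all genes was 187 with DESeq2, 663 with no filter, 5 with the replicate block, 0 to 17 with 1 library left out (0 without KO 2, 1 without KO 1, 17 without WT 2) and 27 without WT 2 and KO 3. DESeq2 called 1 member, Gbp3, where 187 of 15123 genes passed. With no filter 3 members passed, Gbp3, Irgm2 and Gbp7, where 663 of 27874 genes did. Every other setting run called 0 members. The count of members without overlap was 8 of 45 (19.5% of all genes). With fewer libraries to separate, it was 15 without WT 3 (31.7% of all genes) and 16 without KO 3 (25.5%). Leaving out WT 2 and KO 3 gave 21 (39.7%). It was 12 without WT 2 (27.7%) and 11 without WT 1, KO 1 or KO 2 (31.6%, 32.3% and 29.4%). Where it was 11 or 12, the share of members was below that of all genes. The median over members, 0.16, was 0.43 without WT 2 and KO 3. No called member changed sign, since none was called; uncalled signs changed for 10 members without KO 2, 9 without WT 2 and 7 without WT 1. The causes were not tested. Replicate numbers were not shown to pair samples: deviations of same-numbered libraries correlated at -0.11, 0.10 and 0.09, and with the replicate block the median over members was 0.19. Genes under about 100 counts in all, such as Mx1, carry large standard errors at this depth.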

Other observations

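Granzyme genes, which encode proteases of cytotoxic lymphocytes, were highest in KO 2; they were named after their values were seen. Gzma had 11, 4 and 8 counts in WT, against 2, 71 and 0 in KO, and Gzmb had 1, 3 and 13 counts in WT, against 1, 24 and 0 in KO. Oas3, an OAS gene that did not pass the count filter, had 0, 1 and 2 counts in WT, against 11, 8 and 9 in KO, so the groups did not overlap. Gbp8, which overlaps Gbp4, had 3, 4 and 4 counts in WT, against 13, 24 and 4 in KO. For Gbp8, as for Gbp4, linked sequence carried along with the knockout allele and loss of PGAM5 itself cannot be told apart. The distance of Oas3 from Pgam5 was not computed.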
